A study of Mus musculus with 6 samples.

Results

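The Wnt ligands, their receptors and their antagonists were examined in the somatosensory cortex of *Mef2c* conditional knockout (*Mef2c* cKO) and control mice. Members were chosen by gene symbol alone: Wnt ligands, Frizzled receptors, *Lrp5* and *Lrp6*, R-spondins 2 to 4, secreted Frizzled-related proteins including *Frzb*, Dickkopfs 1 to 4, *Porcn*, *Axin1* and *Axin2*, and the TCF/LEF factors. This rule found 50 of the 21667 named genes. RNA was sequenced from 3 control mice, homozygous for floxed *Mef2c* and without Cre, and from 3 *Mef2c* cKO mice, which carried the same floxed alleles and Cre recombinase inserted in the *Emx1* gene. *Emx1* drives Cre in excitatory neurons of the cortex and hippocampus and in some forebrain glia, from the embryo on, so other cells of the tissue kept *Mef2c*. All mice were males of a mixed SVeV-129; C57BL/6J background. In each genotype replicate 1 was 14 weeks old and replicates 2 and 3 were 12 weeks old. Each sample was dissected tissue that holds many cell types, in which fewer cells of a type and less RNA per cell cannot be told apart.

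Wnts are secreted, lipid-modified proteins that bind Frizzled receptors together with LRP5 or LRP6. In the canonical branch this binding stops the destruction complex, built on Axin, from marking beta-catenin for degradation, and beta-catenin then works with TCF/LEF factors in the nucleus. R-spondins strengthen the signal through LGR receptors by removing the ubiquitin ligases ZNRF3 and RNF43 from the surface, whereas secreted Frizzled-related proteins and Dickkopfs restrain it outside the cell. In the brain the pathway is known for its roles in patterning, axon growth, synapse formation and the blood-brain barrier.

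Values are given as CPM, a gene's reads scaled to the mouse's total and set on the counts-per-million scale, from whole read counts recovered from the deposited RPKM values. The recovered totals were between 19326365 and 54128334 reads per mouse, with *Mef2c* cKO replicate 2 the shallowest. Genes with over 0.5 CPM in all 3 mice of either genotype were tested, 14616 in all. A gene was called when limma gave it a Benjamini-Hochberg adjusted p-value under 0.05 over all of them and its log2 fold change, *Mef2c* cKO minus control, was beyond 0.3 in size. Fold changes were fitted on log2(CPM + 0.1), which understates the change of low genes. The targeted gene itself, *Mef2c* (chromosome 13), stood at 800.3, 771.8 and 800.2 CPM in the controls and at 1231, 1276 and 1468 CPM in the *Mef2c* cKO mice. The log2 fold change was 0.74 ± 0.07 (SE, adjusted p by limma = 0.000173). The exact two-sided permutation p was 0.1, the smallest that 3 mice against 3 allow. A count over the whole gene takes in exons outside the floxed segment, so it does not check the deletion.

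Of the 50 members, 40 were tested and 15 were called, 9 higher and 6 lower in the *Mef2c* cKO cortex. That is 37.5% of the tested members, against 13.6% of all genes tested (5.88% higher and 7.77% lower). The median absolute log2 fold change was 0.43 over the tested members and 0.13 over all genes tested, while the median signed change was -0.04 and 0.01. The members that moved therefore did so in both directions. Each genotype's mice did not overlap for 11 members that were higher and 9 that were lower, where 16.3% and 17.5% of all genes tested did so. Of the 40, 36 passed the filter in both genotypes and 4 (*Wnt2b*, *Fzd10*, *Dkk2* and *Sfrp5*) only through the controls.

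**Figure D1:**
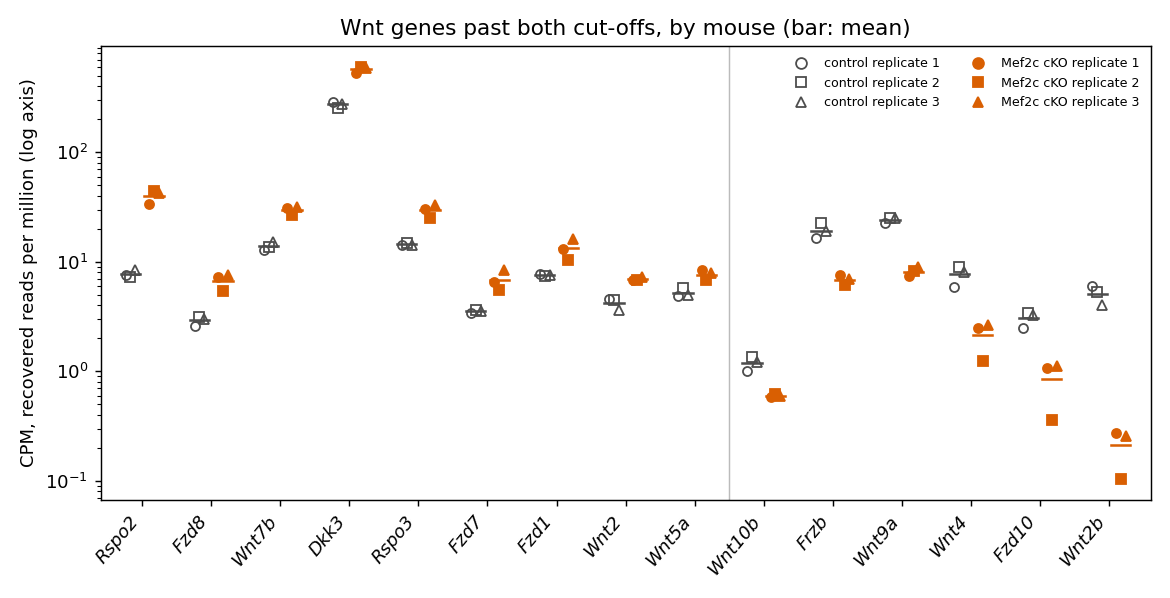
CPM on a log axis for the 15 called members, 1 point per mouse with a bar at the mean of each genotype; open grey symbols are controls, filled orange symbols *Mef2c* cKO mice. The 9 genes left of the line were higher and the 6 right of it lower in every *Mef2c* cKO mouse than in every control.

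The R-spondins held the largest rise among the members. *Rspo2* (chromosome 15, 42852357 to 43002364, mm9) had 7.498, 7.33 and 8.44 CPM in the controls and 34.1, 44.3 and 42.5 CPM in the *Mef2c* cKO mice. Every *Mef2c* cKO mouse lay far above every control. The mean rose 5.20-fold, from 7.76 ± 0.599 to 40.3 ± 5.47 CPM (SD, n = 3 each), or by 2.36 ± 0.11 on the log2 scale (SE, limma adjusted p = 2.73e-06). *Rspo3* (chromosome 10, 29172915 to 29255673) went from 14.2, 14.9 and 14.4 CPM to 30.4, 24.9 and 33.0 CPM, up by 1.01 ± 0.11 on the log2 scale (limma adjusted p = 0.000221). Per kilobase of annotated exon, *Rspo3* stood above *Rspo2* in the controls, at 6.05 ± 0.158 against 2.33 ± 0.180 CPM per kb. In the *Mef2c* cKO mice both stood close together, at 12.3 ± 1.71 and 12.1 ± 1.65 CPM per kb. *Rspo4* had at most 3 reads in any mouse and was not tested.

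*Rspo1*, which the symbol rule did not take in, moved the other way. It had 25.2, 23.2 and 17.4 CPM in the controls and 0.611, 0.362 and 0.776 CPM in the *Mef2c* cKO mice, 2901 reads against 69 over the 3 mice of each genotype (log2 fold change -5.04 ± 0.24, limma adjusted p = 2.59e-06). Like *Wnt2b*, it passed the filter only through the controls.

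The R-spondin receptors were all lower. *Lgr4* had 37.6, 37.6 and 37.4 CPM in the controls and 24.0, 26.3 and 27.7 CPM in the *Mef2c* cKO mice (log2 fold change -0.53 ± 0.07, limma adjusted p = 0.00106). *Lgr5*, best known as a stem cell marker, fell from 7.82, 8.54 and 7.22 CPM to 4.43, 4.24 and 4.38 CPM (-0.84 ± 0.11, adjusted p = 0.00101). *Lgr6* fell from 2.65, 2.79 and 2.89 CPM to 1.22, 0.724 and 0.961 CPM (-1.45 ± 0.20, adjusted p = 0.00107). The genotypes did not overlap for any of the 3 receptors. Of the ligases that R-spondins remove, *Znrf3* was called lower (-0.43 ± 0.12, adjusted p = 0.0410), a call lost when any mouse other than control replicate 1 was left out (adjusted p between 0.0543 and 0.141). *Rnf43*, at 2.85 to 3.82 CPM in the controls and 3.42 to 3.78 CPM in the *Mef2c* cKO mice, was not called.

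**Figure D2:**
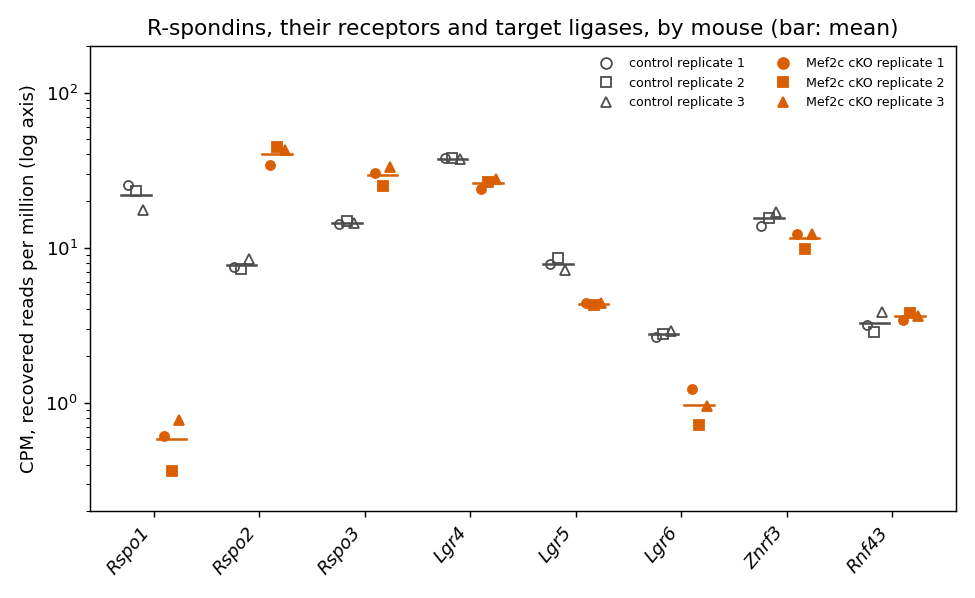
CPM on a log axis for R-spondins 1 to 3, the receptors *Lgr4*, *Lgr5* and *Lgr6* and the ligases *Znrf3* and *Rnf43*, 1 point per mouse with a bar at the mean of each genotype. *Rspo2* and *Rspo3* were higher and *Rspo1* and the 3 receptors lower in every *Mef2c* cKO mouse, while *Rnf43* overlapped.

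Among the 19 Wnt ligands, 12 were tested, 3 were called higher and 4 lower. The largest fall was that of *Wnt2b*, a canonical ligand (chromosome 3, 104747723 to 104764627, minus strand, mm9). It had 6.06, 5.32 and 3.997 CPM in the controls and 0.275, 0.103 and 0.259 CPM in the *Mef2c* cKO mice. These were 675 reads over the 3 controls and 25 over the 3 *Mef2c* cKO mice, a mean 24.1-fold lower (log2 fold change -4.10 ± 0.28, limma adjusted p = 1.70e-05). With so few reads left, the size of the fall is less certain than its direction.

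*Wnt9a*, a ligand known for joint formation (chromosome 11, 59120430 to 59147054), was the most abundant Wnt per kilobase in the controls, at 7.27 ± 0.423 CPM per kb. Its CPM fell from 22.6, 25.1 and 24.9 to 7.36, 8.18 and 8.90, 2.97-fold lower (log2 fold change -1.56 ± 0.10, limma adjusted p = 1.29e-05). In the *Mef2c* cKO mice it stood at 2.45 ± 0.232 CPM per kb, under *Wnt7b* at 6.72 ± 0.615, *Wnt10a* at 5.19 ± 0.465 and *Wnt2* at 3.09 ± 0.103. *Wnt4* (chromosome 4, 136833404 to 136855641) had 5.94, 9.05 and 7.99 CPM in the controls and 2.50, 1.24 and 2.66 CPM in the *Mef2c* cKO mice (log2 fold change -1.84 ± 0.28, adjusted p = 0.00164). *Wnt10b*, at 1.00, 1.34 and 1.20 CPM against 0.580, 0.621 and 0.591 CPM, was called lower (-0.87 ± 0.20, adjusted p = 0.0170). The *Wnt10b* call was lost without control replicate 2 (adjusted p = 0.0797) or without control replicate 3 (adjusted p = 0.0619).

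*Wnt7b*, a ligand known for brain angiogenesis and dendrite growth (chromosome 15, 85365869 to 85412251), had 12.9, 13.7 and 15.2 CPM in the controls and 31.0, 26.5 and 31.5 CPM in the *Mef2c* cKO mice. The mean was 2.13-fold higher (log2 fold change 1.08 ± 0.10, limma adjusted p = 9.78e-05). Its close relative *Wnt7a* stood at 6.53 to 7.26 CPM in the controls and 7.33 to 7.79 CPM in the *Mef2c* cKO mice, without overlap but with a log2 fold change of only 0.15 ± 0.10 (adjusted p = 0.383). *Wnt2* rose from 4.56, 4.49 and 3.63 CPM to 6.81, 6.88 and 7.24 CPM (0.72 ± 0.13, adjusted p = 0.00456). Its direction was opposite to that of its paralog *Wnt2b*.

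*Wnt5a*, the ligand best known for signalling outside the canonical branch, had 4.85, 5.77 and 5.03 CPM in the controls and 8.34, 6.78 and 7.83 CPM in the *Mef2c* cKO mice (log2 fold change 0.54 ± 0.13, limma adjusted p = 0.0182). Its call was lost without control replicate 1 or 3 and without *Mef2c* cKO replicate 1 or 3 (adjusted p between 0.0574 and 0.0674). *Wnt5b* was higher in every *Mef2c* cKO mouse, at 4.67 to 5.25 CPM against 3.41 to 4.27 CPM, and was not called (0.39 ± 0.13, adjusted p = 0.0838). Exons of *Wnt5a* and *Wnt7b* each overlap an annotated gene on the opposite strand. So do those of the members *Axin2*, *Sfrp2*, *Tcf7l1* and *Wnt11*, and of *Cxxc4*, *Tmem88*, *Tle1* and *Vangl1*, called pathway genes given below. The paper describes directional libraries, but whether the counting used strand is not given in the sources used here. The other tested ligands, *Wnt3*, *Wnt6*, *Wnt7a* and *Wnt10a*, overlapped between genotypes apart from *Wnt7a*.

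The promoter of *Wnt2b*, the ligand with the largest fall, and that of *Fzd1*, a called receptor gene with a TCF-type motif, are shown as the 250 bases before the RefSeq start, 5′ to 3′ on the minus strand that both genes lie on. The sequences are from a RefSeq table of GRCm38.p6 and were each matched once to mm9, at chr3:104764628-104764877 and chr5:4758217-4758466. Capitals mark the reverse complement of CTTTGA, the core of the TCF/LEF motif.
Wnt2b: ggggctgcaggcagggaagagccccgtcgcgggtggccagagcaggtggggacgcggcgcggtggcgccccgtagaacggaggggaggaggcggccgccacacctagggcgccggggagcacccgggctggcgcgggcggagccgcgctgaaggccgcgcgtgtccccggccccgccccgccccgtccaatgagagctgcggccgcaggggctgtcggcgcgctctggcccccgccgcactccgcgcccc
Fzd1: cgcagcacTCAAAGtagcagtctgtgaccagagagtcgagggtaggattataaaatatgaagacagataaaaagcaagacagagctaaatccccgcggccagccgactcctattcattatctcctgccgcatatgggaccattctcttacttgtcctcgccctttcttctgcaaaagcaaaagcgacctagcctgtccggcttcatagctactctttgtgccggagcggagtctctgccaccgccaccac
The table held promoters, 250 bases before to 50 after the start, for 32 of the 50 members and for 9 of the 15 called ones. CTTTGA was searched on both strands and stood in 16.0% of all 32851 promoters and in at least 1 promoter of 6 of the 32 members (18.8%). Of these, *Frzb* and *Fzd1* were called. The MEF2 consensus was searched by its pattern on both strands and stood in 3.19% of all promoters and in 0 of the 32 members, including *Wnt2b*. The 32 members had 40 promoters, so these shares set promoters against genes and are not like for like. A missing match says only that these letters are not in this window.

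All 10 Frizzled receptors were tested, of which 3 were called higher and 1 lower. *Fzd8* had 2.59, 3.12 and 3.03 CPM in the controls and 7.21, 5.38 and 7.501 CPM in the *Mef2c* cKO mice (log2 fold change 1.16 ± 0.16, limma adjusted p = 0.00100). *Fzd7* rose from 3.38, 3.64 and 3.59 CPM to 6.54, 5.48 and 8.44 CPM (0.91 ± 0.16, adjusted p = 0.00463). *Fzd1* rose from 7.70, 7.39 and 7.57 CPM to 13.2, 10.5 and 16.2 CPM (0.78 ± 0.15, adjusted p = 0.00626). In all 3 genes *Mef2c* cKO replicate 2 was the lowest of its genotype and still above every control.

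*Fzd10* (chromosome 5, 129106719 to 129109968) went down, from 2.50, 3.42 and 3.26 CPM to 1.07, 0.362 and 1.11 CPM (log2 fold change -1.85 ± 0.35, limma adjusted p = 0.00602). It rested on 422 reads over the controls and 102 over the *Mef2c* cKO mice. *Fzd3*, known for axon guidance, was the most abundant Frizzled per kilobase, at 31.7 ± 1.75 CPM per kb in the controls and 29.5 ± 2.18 in the *Mef2c* cKO mice, and was not called (log2 fold change -0.11 ± 0.07). The other 5, *Fzd2*, *Fzd4*, *Fzd5*, *Fzd6* and *Fzd9*, overlapped between genotypes. The co-receptors *Lrp6*, at 85.3 to 94.4 CPM in the controls and 85.3 to 90.6 CPM in the *Mef2c* cKO mice, and *Lrp5* overlapped as well. The log2 fold change of *Lrp6* was -0.01 ± 0.06.

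**Figure D3:**
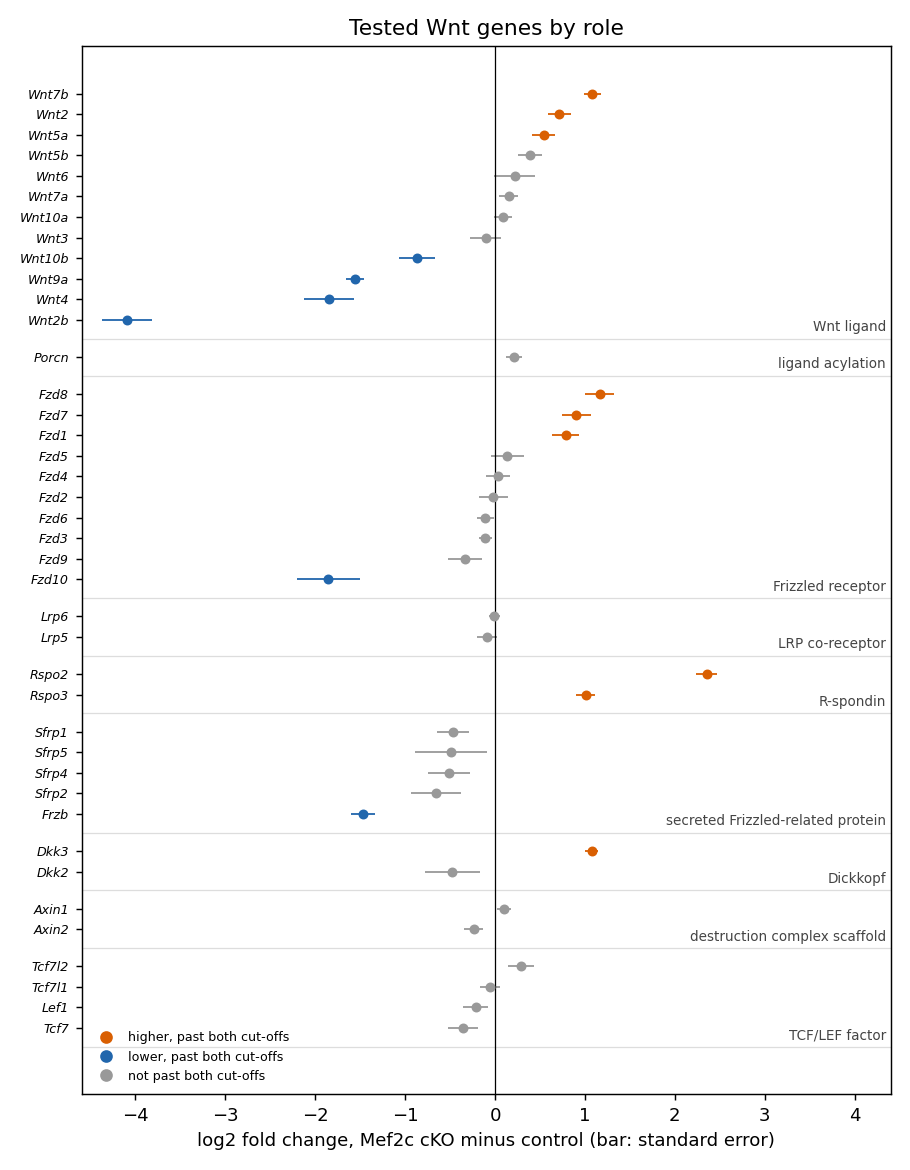
Log2 fold change (*Mef2c* cKO minus control) with its standard error for the 40 tested members, grouped by role; orange and blue points passed both cut-offs, grey points did not. Called genes lie among the ligands, Frizzleds, R-spondins and extracellular antagonists, and none among the co-receptors, Axins and TCF/LEF factors.

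The 5 secreted Frizzled-related proteins bind Wnts or Frizzleds in the extracellular space, and 1 was called. *Frzb* (chromosome 2, 80252127 to 80287782) had 16.5, 22.4 and 19.1 CPM in the controls and 7.60, 6.11 and 6.95 CPM in the *Mef2c* cKO mice, 2.80-fold lower (log2 fold change -1.47 ± 0.13, limma adjusted p = 9.78e-05). The values of the other 4 ranged from -0.66 for *Sfrp2* to -0.47 for *Sfrp1*, with adjusted p between 0.119 and 0.478, and overlapped between genotypes. Of these, *Sfrp5* passed the filter only through the controls, at 0.776 to 0.810 CPM. It had 0.825, 0.207 and 0.813 CPM in *Mef2c* cKO replicates 1 to 3. Its negative value therefore came from replicate 2, with 4 reads.

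*Dkk3*, a divergent Dickkopf whose effect on Wnt signalling varies with the cell type, was the most abundant member per kilobase in both genotypes. It had 291, 256 and 275 CPM in the controls and 532, 607 and 594 CPM in the *Mef2c* cKO mice, 2.11-fold higher (log2 fold change 1.08 ± 0.07, limma adjusted p = 1.57e-05). *Dkk2*, near the filter at 0.587 to 0.737 CPM in the controls, overlapped and was not called. *Dkk1* and *Dkk4* were not tested.

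Inside the cell no member was called. *Axin2*, a scaffold of the destruction complex and a common readout of canonical signalling, had 24.2, 22.7 and 22.9 CPM in the controls and 22.5, 17.1 and 19.7 CPM in the *Mef2c* cKO mice, lower in each but not called (log2 fold change -0.24 ± 0.10, limma adjusted p = 0.166). *Axin1* overlapped. Of the TCF/LEF factors, *Tcf7* (-0.35 ± 0.17, adjusted p = 0.204) and *Lef1* (-0.21 ± 0.14, adjusted p = 0.345) were lower in each *Mef2c* cKO mouse without being called, and *Tcf7l1* and *Tcf7l2* overlapped. *Porcn*, the acyltransferase that lipid-modifies Wnts, had a log2 fold change of 0.21 ± 0.09 and was not called (adjusted p = 0.177). A p-value above the threshold does not show that these levels were equal.

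The 10 members that were not tested had few reads. *Wnt8a* had 0 reads in all 6 mice, which allows up to 0.0554 CPM in the deepest library and 0.155 CPM in the shallowest, covering counting error only. *Dkk4*, *Rspo4*, *Wnt1*, *Wnt3a*, *Wnt8b* and *Wnt9b* had at most 5 reads in any mouse. *Wnt11* had 2 to 12 reads, *Wnt16* 2 to 27 and *Dkk1* 5 to 35. These genes did not pass the filter, so a difference between genotypes is neither claimed nor excluded for them.

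A second list held other genes of the pathway. Of its 84 tested genes, 7 were called higher and 11 lower, 21.4% against 13.6% of all genes tested. The median absolute log2 fold change was 0.15, close to the 0.13 over all genes tested. By part, 5 of 14 secretion and extracellular genes, 4 of 9 co-receptor and receptor turnover genes, 4 of 32 beta-catenin and destruction complex genes, 2 of 12 nuclear partners, 3 of 13 planar polarity genes and 0 of 4 common TCF targets were called. The share in the destruction complex part was 12.5%, near that of all genes tested.

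Among the secretion and extracellular genes, *Wls*, the carrier that takes Wnts to the cell surface, fell from 23.5, 23.9 and 26.8 CPM to 11.7, 13.3 and 14.2 CPM (log2 fold change -0.92 ± 0.10, limma adjusted p = 0.000256). *Gpc4*, a glypican, rose from 8.06, 9.98 and 7.78 CPM to 33.0, 32.2 and 38.7 CPM (2.001 ± 0.12, adjusted p = 7.81e-06). *Dkkl1*, a Dickkopf-like gene, fell from 13.2, 15.4 and 12.0 CPM to 0.916, 0.673 and 0.536 CPM (-4.10 ± 0.19, adjusted p = 2.47e-06). All 3 were without overlap. *Apcdd1*, a membrane inhibitor of Wnt signalling, was higher at 30.2, 64.7 and 50.8 CPM against 24.2 to 25.02 CPM in the controls (0.92 ± 0.22, adjusted p = 0.0209). The *Apcdd1* call was lost without any 1 control or without *Mef2c* cKO replicate 3 (adjusted p between 0.0557 and 0.0649).

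In the other parts of the list, *Dact2*, a Dishevelled-binding protein, fell from 55.4, 64.6 and 54.5 CPM to 21.0, 23.9 and 27.3 CPM (log2 fold change -1.28 ± 0.11, limma adjusted p = 5.92e-05). *Ankrd6* (-0.85 ± 0.11), *Tmem88* (-0.76 ± 0.13) and *Cxxc4* (-0.73 ± 0.10) were also lower. The nuclear partners *Pygo1* (0.55 ± 0.10) and *Tle1* (0.49 ± 0.06) and the polarity genes *Vangl1* (0.93 ± 0.19) and *Celsr2* (0.34 ± 0.06) were higher. *Amer2* was called higher by 0.33 ± 0.08 (adjusted p = 0.0199), a call kept without control replicate 3 and lost without any other mouse. *Ctnnb1*, which encodes beta-catenin, stood at 392 to 416 CPM in the controls and 352 to 421 CPM in the *Mef2c* cKO mice and was not called. The targets *Ccnd1*, *Myc*, *Cd44* and *Id2* were not called.

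Marker lists of cell types and regions were read in the same mice. The excitatory neuron list, which the labelled tissue should hold, summed to 4660 to 5365 CPM in the controls and 4972 to 5877 CPM in the *Mef2c* cKO mice. The upper-layer list summed to 716 to 809 CPM in the controls and 473 to 500.2 CPM in the *Mef2c* cKO mice, with *Cux1*, *Cux2*, *Rasgrf2* and *Calb1* of its 6 genes called lower and *Mdga1* higher. The hippocampus list summed to 64.7 to 75.9 CPM and 115 to 220 CPM, with 3 of 6 tested genes higher (*Tdo2*, *Spink8* and *Wfs1*). Most of that sum was *Wfs1*, at 53.8 to 66.6 CPM in the controls and 96.7 to 195 CPM in the *Mef2c* cKO mice. *Prox1*, *Lct* and *Dsp* were not called. The striatum list summed to 186 to 261 CPM in the controls and to 408, 204 and 371 CPM in *Mef2c* cKO replicates 1 to 3, with *Drd1* and *Penk* called higher. The leptomeningeal fibroblast list summed to 124 to 136 CPM in the controls and to 196, 120 and 187 CPM in *Mef2c* cKO replicates 1 to 3, with *Dcn* the 1 called gene of 10. *Mef2c* cKO replicate 2 was the lowest of its genotype there. The same held for the striatum, hippocampus, endothelial, choroid plexus and ependyma, microglia and deep-layer lists. It was also the lowest for *Wnt4*, *Wnt2b*, *Wnt5a*, *Wnt7b*, *Rspo3*, *Frzb*, *Fzd10*, *Fzd1*, *Fzd7* and *Fzd8*. For *Rspo2*, *Dkk3* and *Wnt10b* it was the highest of its genotype. Without it the log2 fold change was -1.51 for *Wnt4*, -1.40 for *Fzd10* and -3.81 for *Wnt2b*, and all 15 members stayed called. The astrocyte list was lower in every *Mef2c* cKO mouse, at 3643 to 3912 CPM against 4132 to 4418 CPM in the controls. Most of that sum was *Slc1a2*, at 2739 to 3014 CPM against 3302 to 3578 CPM, so the sum mainly follows this gene. *Slc1a2* itself was lower (log2 fold change -0.25 ± 0.07, limma adjusted p = 0.0461) but not called, since its change was within the cut-off of 0.3. In the rest of the list *Gfap* and *Aqp4* were called higher and *Aldh1l1* lower. The thalamus list was also lower in each *Mef2c* cKO mouse, at 57.6 to 67.2 CPM against 71.7 to 85.3 CPM. *Slc17a6*, the largest part of that sum, *Ramp3* and *Rgs16* were called lower and *Prkcd* higher. The microglia list was lower in each as well, at 178 to 183 CPM against 188 to 209 CPM, with 0 of its 6 genes called. The oligodendrocyte lineage list overlapped, at 4532 to 5804 CPM against 2838 to 4623 CPM, with *Olig1*, *Olig2* and *Sox10* called higher. The deep-layer, interneuron and choroid plexus and ependyma lists overlapped too, with *Nxph4*, *Sst* and *Foxj1* called higher and *Fezf2*, *Etv1* and *Pvalb* lower. The endothelial and mural lists overlapped and had 0 called genes of 10 and 8. No gene of any list was at 0 in every mouse, and the part of these lists in the Wnt results was not tested.

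**Figure D4:**
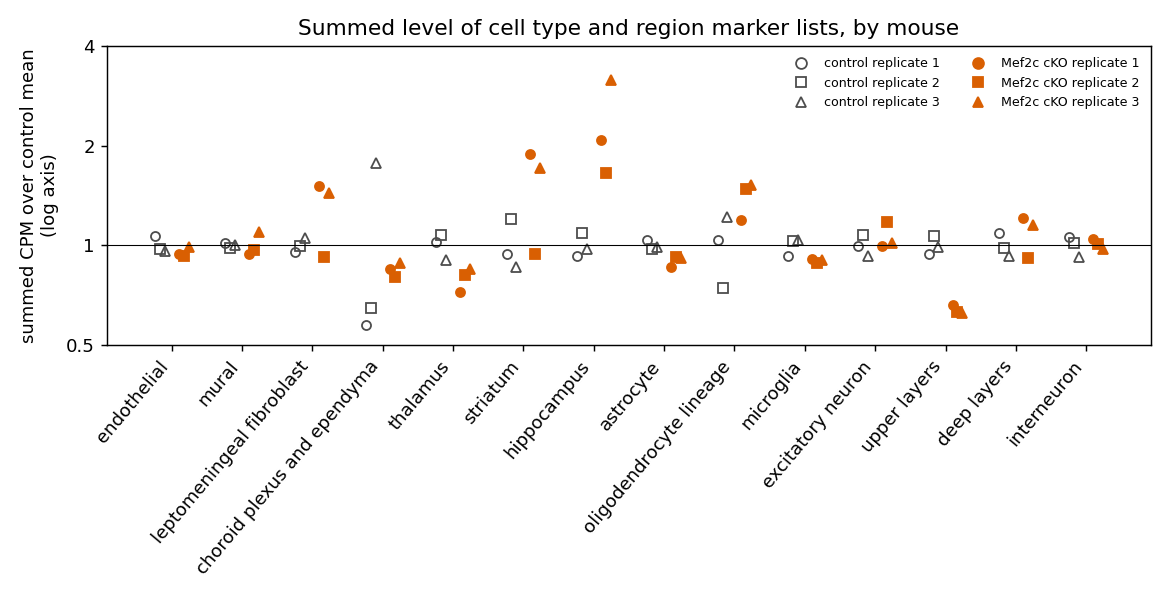
Summed CPM of each marker list divided by the control mean, on a log axis, 1 point per mouse. The upper-layer, astrocyte, thalamus and microglia lists were lower and the hippocampus list higher in every *Mef2c* cKO mouse than in every control, and the other 9 lists overlapped between genotypes. A sum mainly follows its most abundant genes, such as *Slc1a2* in the astrocyte list and *Wfs1* in the hippocampus list.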

How the data were processed

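Per the labels and the study's methods, polyA-selected RNA from the somatosensory cortex was sequenced, aligned by the authors to mm9 with TopHat and Bowtie and counted on genes with HTSeq. Tool versions are not given in the sources used here. The deposited values are RPKM, 1 table per mouse, made by the authors from those counts.

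The RPKM values proved to be whole reads divided by gene lengths that were recycled down the gene list, after 130, 249 and 232 genes in control replicates 1 to 3 and after 130, 65 and 296 in *Mef2c* cKO replicates 1 to 3. Deposited RPKM therefore cannot be compared between mice. The lengths, totals and whole reads were recovered from the steps of the values, and 99.5% to 99.7% of values above 0 came out whole within their printed digits. All 50 members were recovered, and 54 of 21667 named genes were not. The 92 rows without a gene name (0.0528% to 0.0775% of reads) were left out. In simulated tables of the 6 libraries all 6 totals were found, and 100% of the counts given were right. These tables were built with recycled lengths in the gene order that the recovery had found. They check the steps, and cannot show that the deposited values follow that pattern. This recovery was chosen after seeing the data.

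Reads were divided by the recovered total (CPM). log2(CPM + 0.1) was fitted with limma 3.58.1 in R 4.3.3 (lmFit, eBayes with trend) on all 6 mice, with Benjamini-Hochberg adjustment over all genes tested. No count model was used. On simulated data for this comparison (14532 genes) the fit called 95.5% of 200 changed genes and 8 unchanged ones. Tables were made in Python 3.11.15 with pandas 2.3.3, numpy 2.4.6 and, for the permutation test, scipy 1.17.1. Figures were drawn in matplotlib 3.10.9. Coordinates and exon lengths are from gencode vM1 (NCBIM37, mm9), which is not the annotation the authors used.

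Named genes are all members past the cut-offs, with values per mouse, other members by role, and the other pathway genes past the cut-offs. The members and lists were chosen with earlier results of these data known. Groups came from the sample labels. The labels do not tie replicate numbers to litters or batches. The limma p-values set the difference between genotypes against the spread between these mice. For each gene that spread was drawn toward a trend over all genes tested. Alternatives changed the pseudocount, filter, scaling, trend, weights, covariates, cut-off and the mice included, and used the deposited RPKM. The single genes of the excitatory neuron marker list are not reported here.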

Additional observations from a re-analysis of the deposited data

How the results depend on the processing

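On the recovered reads, the number of called members was 14 to 16 under other pseudocounts, filters, scalings, weights, the age term and no variance trend, and 13 to 15 without each mouse in turn. It was 10 when the log2 fold change had to exceed 1 in size. Of the 15 called members, 13 stayed called without each mouse, the exceptions being *Wnt10b* and *Wnt5a*. For the other pathway genes the number was 16 to 19 under those settings and 16 to 18 without each mouse, against 18, and 5 when it had to exceed 1. Here 15 of 18 stayed called without each mouse, the exceptions being *Apcdd1*, *Znrf3* and *Amer2*. None of 527 values of the 33 called genes over 16 settings on recovered reads changed sign, and 27 fell short of the cut-offs. The *Mef2c* log2 fold change was 0.66 to 0.79 without each mouse.

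The deposited RPKM, taken as they stand, gave 0 called members of 10 tested (2 with an unadjusted limma p under 0.05), 1 other pathway gene, and 14 of 7974 genes in all. There *Mef2c* had a log2 fold change of 0.016, and *Apcdd1* (-0.36) and *Lgr4* (1.03) changed sign. These values hold lengths that differ between mice.

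The deviations of same-numbered mice from their genotype means correlated at -0.18 to -0.09, and none correlated best with its own number. Deviations from a mean of 3 mice are not independent, so these values cannot exclude a shared litter or batch. The paper compared mutants with Cre-negative littermates, and the labels do not say which mice shared a litter. With the replicate block, 14 members and 16 other pathway genes were called. The calls of *Wnt5a*, *Znrf3* and *Amer2* were lost under it (limma adjusted p = 0.0605, 0.0713 and 0.0561). Genes with few reads in 1 genotype, such as *Wnt2b*, carry the counting error of those reads.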
